A study of Homo sapiens with 19 samples.

Results

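The 10 mucin genes described here are MUC1, MUC2, MUC3A, MUC4, MUC5AC, MUC5B, MUC12, MUC13, MUC17 and MUC20. They were found by matching Ensembl gene IDs to symbols, which gave 10 of 60612 gene IDs in the HCT116 table, 10 of 63086 in the WiDr short-read table and 10 of 82890 in the WiDr long-read table. RNA was sequenced from HCT116 and WiDr, 2 established human colorectal carcinoma cell lines, in 19 libraries. HCT116 cells received the solvent DMSO, GSK025 (GSK3235025, labelled an inhibitor of the arginine methyltransferase PRMT5) at 10 µM, or GSK715 (GSK3368715, labelled an inhibitor of PRMT1) at 5 µM, each for 96 h and with n = 3 libraries. WiDr cells received DMSO or 5 µM GSK715 for 96 h, with n = 3 short-read libraries and n = 2 full-length cDNA libraries read on an Oxford Nanopore (ONT) sequencer. The labels do not say whether replicates came from separate cultures. The p-values therefore reflect variation from library to library, which may be technical only.

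Mucins are large glycoproteins whose stretches rich in serine, threonine and proline carry dense O-linked sugar chains. MUC2, MUC5AC and MUC5B are secreted and assemble into the gels that cover epithelia: MUC2 is the main gel-forming mucin of the intestine and is made by goblet cells, MUC5AC is the mucin of gastric and airway surface cells, and MUC5B is best known from salivary, airway and cervical glands. MUC1, MUC3A, MUC4, MUC12, MUC13, MUC17 and MUC20 are anchored in the cell membrane, where several of them (MUC3A, MUC12, MUC13 and MUC17 in the gut) form part of the glycocalyx of the brush border. In the healthy colon MUC5AC is scarce, and it is often made by colorectal tumours.

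The sugar-bearing stretches are tandem repeats, which are shown here because such repeats are the hallmark of mucins. A repeat was looked for in the longest open reading frame of each gene's longest transcript (GENCODE 29, build GRCh38), and 5 members held a unit with at least 5 exact copies. Each unit is printed 5′ to 3′ in the strand of the mRNA, with the codons for serine or threonine in capitals.
MUC1: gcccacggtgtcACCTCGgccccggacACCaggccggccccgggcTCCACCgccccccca
MUC2: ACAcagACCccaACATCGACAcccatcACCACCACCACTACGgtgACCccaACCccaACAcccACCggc
MUC4: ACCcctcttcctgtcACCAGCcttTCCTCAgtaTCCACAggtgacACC
MUC5AC: cctACAACCAGCACAACCTCTgcc
MUC20: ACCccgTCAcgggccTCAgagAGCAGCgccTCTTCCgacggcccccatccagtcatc
The MUC1 unit is 60 bases long and was found in 19 exact copies, and 5 of its 20 codons stand for serine or threonine. The MUC5AC unit is the shortest, with 24 bases and 14 exact copies, and 6 of its 8 codons are of that kind. The MUC2 unit has 69 bases and 5 exact copies, the MUC4 unit 48 bases and 14 copies, and the MUC20 unit 57 bases and 10 copies. Over the whole reading frame, codons for serine or threonine made up 24.2% in MUC13, the lowest share, and 49.6% in MUC3A, the highest. The repeat covered 68.7% of the MUC1 frame and 60.5% of the MUC4 frame, but 2.23% of the MUC5B frame at the period found. MUC17 repeated with a period of 177 bases over 74.8% of its frame without such exact copies, and no period was found in MUC12.

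Several members lie side by side in the genome (GRCh38). MUC2 (ENSG00000198788, chr11:1074875-1110511), MUC5AC (ENSG00000215182, chr11:1157953-1201138) and MUC5B (ENSG00000117983, chr11:1223066-1262172) follow each other on the plus strand of chromosome 11. MUC3A (ENSG00000169894, chr7:100949555-100968346), MUC12 (ENSG00000205277, chr7:100969623-101018949) and MUC17 (ENSG00000169876, chr7:101020072-101058745) do so on chromosome 7. MUC20 (ENSG00000176945, chr3:195720882-195741123) lies on the plus strand beside MUC4 (ENSG00000145113, chr3:195746765-195812277) on the minus strand. MUC13 (ENSG00000173702, chr3:124905442-124953819) and MUC1 (ENSG00000185499, chr1:155185824-155192916) stand alone. Exonic lengths ranged from 3499 bases in MUC13 to 21325 in MUC4. MUC20 is an uncertain measurement: 42.8% of its exonic bases also belong to the transcript MUC20-OT1 on the same strand, and 69.1% of its 50-base windows occur in another gene. Of all its windows, 46.6% occur in the pseudogene MUC20P1 and 35.8% in MUC20-OT1. Of the other members, at most 6.50% of the exonic bases (MUC3A) and 3.67% of the windows (MUC3A) were shared with another gene. The strand of the counting is not given in the sources used here, so reads of the antisense genes at MUC3A, MUC5B and MUC12 could not be told apart.

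For 7 members RefSeq promoter entries were at hand. The 250 bases before the start, as RefSeq places it, are printed for MUC1, MUC13 and MUC2. Of these the first 2 rose and the last fell with GSK715 in WiDr short reads (below). Capitals mark matches on either strand to 4 motifs. The TATA box was searched as TATAAA. The GC box was searched as GGGCGG. For the GATA factors the letters were AGATAA. For the CDX factors they were CATAAA.
MUC1 (chr1:155192916-155193165, minus strand): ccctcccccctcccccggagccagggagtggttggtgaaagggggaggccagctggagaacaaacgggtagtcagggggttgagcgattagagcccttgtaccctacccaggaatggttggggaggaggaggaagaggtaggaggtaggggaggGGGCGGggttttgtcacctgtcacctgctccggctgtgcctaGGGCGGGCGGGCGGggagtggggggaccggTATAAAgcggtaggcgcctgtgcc
MUC13 (chr3:124934752-124935001, minus strand): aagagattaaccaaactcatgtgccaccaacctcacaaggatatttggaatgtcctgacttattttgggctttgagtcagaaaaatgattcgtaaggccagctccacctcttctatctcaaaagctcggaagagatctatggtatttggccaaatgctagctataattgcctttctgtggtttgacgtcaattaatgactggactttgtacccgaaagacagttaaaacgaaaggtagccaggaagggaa
MUC2 (chr11:1074624-1074873, plus strand): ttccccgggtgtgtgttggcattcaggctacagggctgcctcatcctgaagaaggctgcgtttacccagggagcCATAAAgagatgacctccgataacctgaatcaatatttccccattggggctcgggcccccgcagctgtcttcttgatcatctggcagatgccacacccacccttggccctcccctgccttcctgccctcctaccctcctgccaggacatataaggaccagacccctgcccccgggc
The MUC1 window (build GRCh38.p14) held 1 TATA box and 4 GC box matches, 3 of which overlap in 1 run, at 66.0% G and C. The MUC13 window lies inside the gene span given above, since RefSeq's start differs from that of GENCODE 29. It had 41.6% G and C and 0 matches, and the MUC2 window 59.6% and 1 CDX motif. Among all 35116 promoter entries the median was 58.0% G and C, and the share with a match was 10.7% for the TATA box, 42.6% for the GC box, 9.17% for the GATA motif and 9.64% for the CDX motif. These are matches of letters only.

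Library totals were 64.6 to 66.9 M counts (M, 10 to the power 6) in HCT116, 59.6 to 82.4 M in WiDr short reads and 1.45 to 1.67 M in ONT, so a weak mucin such as MUC4 had 63 to 83 counts in a WiDr DMSO library with short reads and 0 or 2 with ONT. Levels are in CPM, counts scaled to the size of the library, after TMM scaling, and changes are log2 fold changes with an approximate standard error (SE). A gene is called higher or lower at an adjusted p under 0.05 (edgeR's quasi-likelihood test). All 11 colon epithelium markers examined (among them EPCAM, CDH1 and VIL1) had counts in every group, with 1 exception. CDX1 was at 0 in HCT116 with GSK715. In HCT116 9 of the 11 passed the count filter, and VIL1 was weakly measured (SE 1.38 with either compound). The 10 goblet cell markers summed to 4.09 to 8.04 CPM in the HCT116 libraries. In WiDr short reads they summed to 665 to 694 CPM with DMSO, where CLCA1 and ZG16 were at 0, and to 570 to 616 with GSK715. Most of this was AGR2, with means of 506 and 475 CPM. In WiDr ONT they summed to 855 to 894 CPM with DMSO and 693 to 697 with GSK715, and CLCA1 was at 0. Of 13 stromal, endothelial and immune markers, 7 had counts with DMSO and 10 with GSK715 in WiDr short reads. LYZ carried the sum there (1205 ± 15.6 CPM with DMSO and 3074 ± 75.6 with GSK715, SD, n = 3). COL1A1 had means of 11.5 and 15.3 CPM and CD14 of 7.95 and 20.9, while COL1A2, COL3A1 and DCN were at 0. In HCT116 with DMSO 11 of the 13 had counts, led by COL1A1 at 17.0 ± 1.30 CPM. COL1A2 was called higher there with GSK025 (log2 fold change 4.33, adjusted p = 0.0026). Replicate 3 of HCT116 with GSK715 stood apart: 41 genes were at least 4-fold above both other replicates there, against 10 to 18 in the other HCT116 libraries, and they included MUC5B, MUC5AC, ALDH1A1 and the fibrinogen genes FGA, FGB and FGG. Results that rest on it are given with and without it.

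The lines differed in which mucins they made. Compared per kilobase of exon, MUC5AC (46.2 ± 1.23 CPM per kb) and MUC13 (46.1 ± 0.585, SD, n = 3) led the WiDr DMSO libraries with short reads. They did not differ beyond their spread. MUC2 (3.69 ± 0.0976) and MUC20 (3.33 ± 0.329) followed at levels that also lay within their spread of each other, then MUC3A (1.74 ± 0.154). MUC12, MUC5B and MUC1 were at 0.244, 0.220 and 0.209 CPM per kb and could not be ordered. MUC17 (0.153) and MUC4 (0.0510) were the weakest. In HCT116 with DMSO, MUC3A led at 2.11 ± 0.198 CPM per kb. MUC5B (0.382 ± 0.144), MUC20 (0.355 ± 0.0584) and MUC12 (0.301 ± 0.0572) came next without a difference beyond their spread, then MUC1 (0.153) and MUC13 (0.150). MUC5AC and MUC2 were close to their detection limit there, and MUC17 had 0 counts in all 9 HCT116 libraries, where 3 counts would be the floor. The secreted mucins MUC5AC and MUC2 and the membrane mucin MUC13 thus ranked high in WiDr and low in HCT116, while MUC3A was at like levels in both (24.05 ± 2.26 CPM in HCT116 and 19.8 ± 1.75 in WiDr, DMSO, tables scaled separately). No test across the lines was made on these levels.

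**Figure D1:**
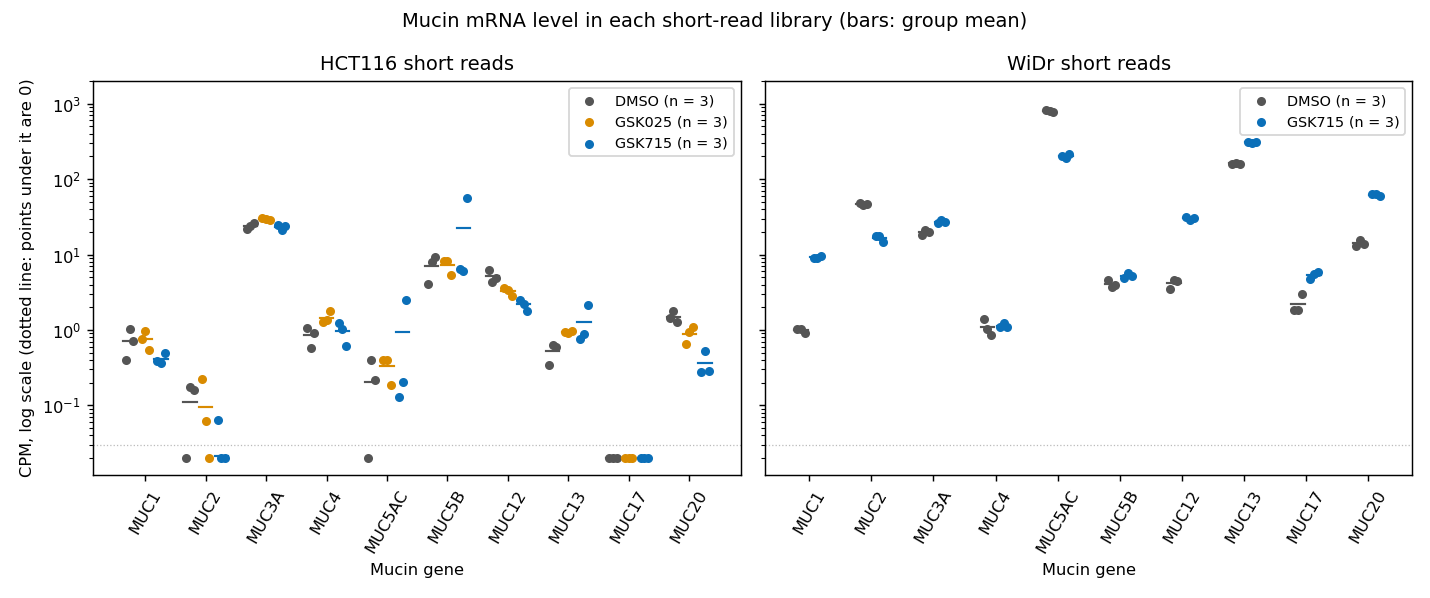
Level of each of the 10 mucins in every short-read library, in CPM on a log axis, for HCT116 (left) and WiDr (right). Each point is a library, bars are group means, and points under the dotted line are 0 counts. MUC5AC and MUC13 stand highest in WiDr, where the MUC4 points of DMSO and GSK715 overlap. In HCT116 the highest MUC5B and MUC5AC points are replicate 3 with GSK715.

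With GSK715 in WiDr short reads the mucins changed in opposite directions: the secreted MUC5AC and MUC2 fell and 6 membrane mucins rose. Of the 10 members tested, 6 were called higher and 2 lower, beside 65.8% of all genes called in this comparison (33.6% higher and 32.2% lower). With that background, the count of called members alone says little about mucins, and the sizes of the changes are what the following values show. The median log2 fold change was 0.70 over the 10 members and 0.05 over all 19340 genes tested.

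MUC5AC stood at 828, 807 and 785 CPM in the DMSO libraries and at 200, 193 and 213 CPM with GSK715. The groups did not overlap, and the fall was 3.99-fold (log2 fold change -1.997, SE 0.04, adjusted p = 1.1e-10). MUC2 was at 47.6, 45.3 and 47.2 CPM with DMSO and at 17.5, 17.7 and 14.8 with GSK715. This too was a separation without overlap, with a log2 fold change of -1.49 (SE 0.08, adjusted p = 5.9e-08). MUC5B, the other secreted member and a neighbour of both, did not follow: its DMSO libraries were at 4.54, 3.76 and 3.98 CPM and its GSK715 libraries at 4.83, 5.72 and 5.19. Its log2 fold change of 0.36 (95% interval 0.01 to 0.70) missed the threshold (adjusted p = 0.0632), and without a composition factor it passed (0.48, adjusted p = 0.0191). MUC6, a secreted gastric mucin just upstream of MUC2, was at 0.921, 0.340 and 0.610 CPM with DMSO and had counts in 1 of the 3 GSK715 libraries (log2 fold change -2.94, SE 1.11, adjusted p = 0.0389). In bulk RNA, fewer cells making a mucin and less of its RNA per cell cannot be told apart.

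Among the membrane mucins MUC1, a signalling mucin of most glandular epithelia, changed most. It was at 1.04, 1.02 and 0.903 CPM with DMSO and 8.87, 8.98 and 9.66 with GSK715, a 9.29-fold rise (log2 fold change 3.22, SE 0.15, adjusted p = 4e-08). MUC12 went from 3.48, 4.59 and 4.45 CPM to 31.3, 28.8 and 30.3, a 7.21-fold rise (2.85, SE 0.11, adjusted p = 7.4e-09). For both genes every GSK715 library was more than 6 times the highest DMSO library.

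MUC20, which has been described as a partner of the MET receptor, was at 12.8, 15.6 and 13.97 CPM with DMSO and 63.3, 63.5 and 59.5 with GSK715 (log2 fold change 2.14, SE 0.07, adjusted p = 4e-09). Because its reads can be shared with copies, the copies are given beside it: MUC20P1 rose by 1.58 (SE 0.12, adjusted p = 1.1e-06) and MUC20-OT1 by 1.29 (SE 0.10, adjusted p = 1.8e-06). MUC20 and MUC20P1 summed to 20.1 ± 1.88 CPM with DMSO and 79.95 ± 2.73 with GSK715 (SD, n = 3).

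MUC13, the most abundant membrane member, was at 161, 163 and 159 CPM with DMSO and 312, 306 and 309 with GSK715. The libraries of a group lay close together, and the rise was 1.92-fold (log2 fold change 0.94, SE 0.03, adjusted p = 1.2e-09). MUC17 went from 1.84, 1.85 and 3.00 CPM to 4.68, 5.50 and 5.91 (1.26, SE 0.22, adjusted p = 0.00067), and MUC3A, its neighbour on chromosome 7, from 17.9, 21.3 and 20.2 to 26.03, 28.6 and 26.9 (0.46, SE 0.08, adjusted p = 0.00051). The chromosome 7 members therefore all rose, by amounts that differed: MUC12, in the middle, by 2.85. MUC4, a partner of ERBB2, was at 1.39, 1.02 and 0.852 CPM with DMSO and 1.09, 1.25 and 1.10 with GSK715. Its groups overlapped, and the 95% interval of its log2 fold change (-0.54 to 0.70) includes both signs.

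**Figure D2:**
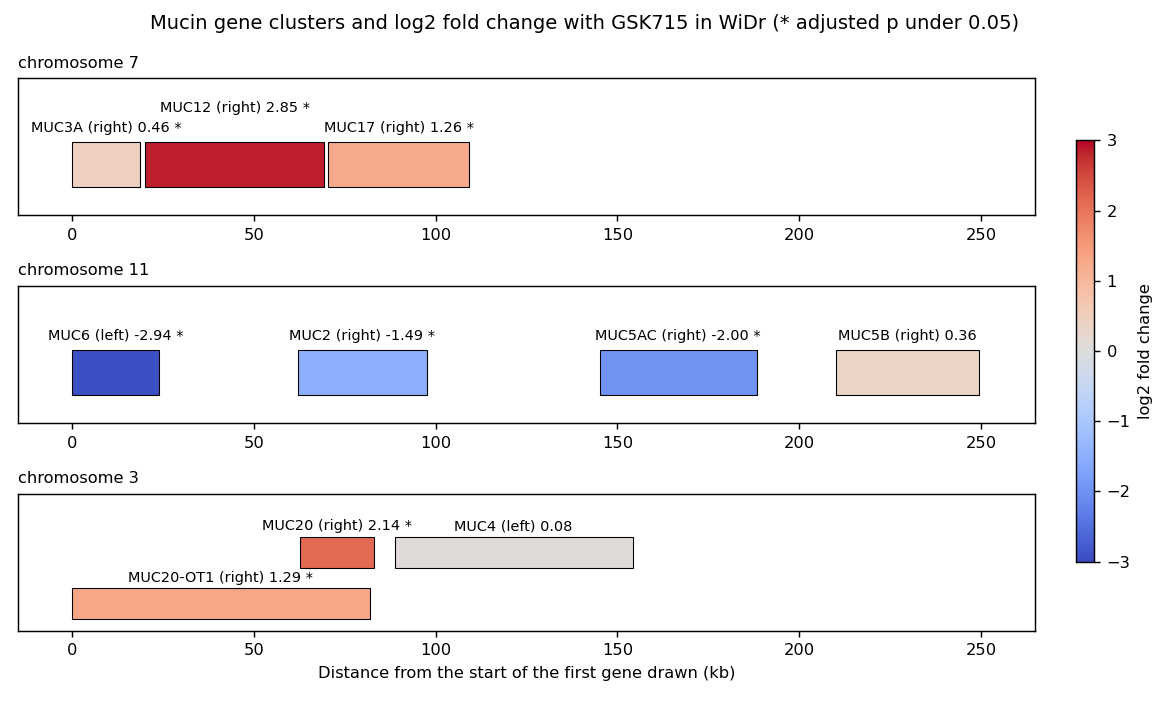
The 3 mucin gene clusters drawn to scale, with distance from the first gene of each in kb; each gene shows its name, the direction in which it is read and its log2 fold change with GSK715 in WiDr short reads, also given by the colour. On chromosome 7 all 3 neighbours rose, on chromosome 11 MUC6, MUC2 and MUC5AC fell and MUC5B did not pass the test, and on chromosome 3 MUC20 rose beside MUC4, which did not pass.

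These changes altered the mix of mucin mRNA in the WiDr short reads. The 10 members summed there to 1039 to 1080 CPM in the DMSO libraries and to 659 to 676 with GSK715. MUC5AC made up 75.6% to 76.7% of that sum with DMSO and 29.2% to 31.6% with GSK715. MUC13 went from 14.9% to 15.3% to a share of 45.8% to 46.6%. MUC20 went from 1.19% to 1.47% to 8.80% to 9.65%, and MUC12 from 0.323% to 0.431% to 4.38% to 4.68%. None of these ranges overlapped between the groups. Per kilobase, MUC13 (88.3 ± 0.852 CPM per kb, SD, n = 3) came first with GSK715, followed by MUC20 (14.6 ± 0.530) and MUC5AC (11.6 ± 0.601). The ONT libraries did not show this switch to MUC13. There MUC5AC made up 74.3% and 77.2% of the sum with DMSO and 60.7% and 59.6% with GSK715. MUC13 made up 8.89% and 8.45%, then 10.4% and 10.1%. Per kilobase with GSK715 in ONT, MUC5AC (15.4 ± 0.516) and MUC20 (15.2 ± 0.902) stood above MUC13 (13.1 ± 0.587, SD, n = 2).

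In HCT116 fewer members were called with GSK715 than in WiDr short reads, as were fewer of all genes. MUC12 and MUC20, which rose in WiDr short reads, fell in HCT116. Of 9 members tested 1 was called higher and 2 lower (6 were not called), beside 46.4% of all genes (22.1% higher and 24.2% lower), and the median log2 fold change was -0.04 over these members and -0.05 over all genes. MUC12 was at 6.25, 4.37 and 4.86 CPM with DMSO and 2.53, 2.23 and 1.78 with GSK715. The groups were separate, and it fell by 1.24 on the log2 scale (SE 0.22, adjusted p = 0.00037). MUC20 was at 1.46, 1.77 and 1.28 CPM and then at 0.274, 0.521 and 0.289, a 4.15-fold fall (log2 fold change -2.05, SE 0.40, adjusted p = 0.00084). Its copy MUC20P1 fell as well (0.506 ± 0.158 and 0.0107 ± 0.0186 CPM, SD, n = 3, adjusted p = 0.0011), while MUC20-OT1 rose by 0.48 (SE 0.07, adjusted p = 0.00011).

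MUC13 was called higher in HCT116 with GSK715, and this call rests on single libraries. It was at 0.347, 0.630 and 0.598 CPM with DMSO and 0.756, 0.884 and 2.14 with GSK715, where replicate 3 was the highest (log2 fold change 1.26, SE 0.45, adjusted p = 0.0357). Without that replicate the value was 0.64 (adjusted p = 0.263). It also lost the call without DMSO replicate 1 (1.04, adjusted p = 0.123), replicate 2 (1.41, adjusted p = 0.0530) or replicate 3 (1.36, adjusted p = 0.0627), and at 108 counts summed over the DMSO libraries it is a weakly measured gene.

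MUC5B and MUC5AC in HCT116 turned on the same library. MUC5B was at 4.08, 8.08 and 9.16 CPM with DMSO and at 6.42, 6.09 and 56.0 with GSK715. Its log2 fold change of 1.68 (SE 0.68) was not called (adjusted p = 0.0596), and was -0.18 without replicate 3 (adjusted p = 0.682). It was called without GSK715 replicate 1 (2.13, adjusted p = 0.0168) or replicate 2 (2.14, adjusted p = 0.0139). MUC5AC had 0, 27 and 15 counts with DMSO and 8, 13 and 157 with GSK715, so that its log2 fold change of 2.21 (SE 1.196, adjusted p = 0.157) became -0.29 without replicate 3 (adjusted p = 0.886). In that library the summed level of the 10 members was 88.0 CPM, against 36.6 and 32.4 in the other GSK715 replicates. Whether its other genes that stood apart share a source with these mucins was not tested. MUC1 (-0.79, SE 0.48), MUC2 (-2.29, SE 1.85, on 4 counts in the GSK715 libraries), MUC3A (-0.04, SE 0.09) and MUC4 (0.18, SE 0.37) were not called.

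GSK025, the PRMT5 inhibitor, changed 2 of the 9 members tested in HCT116, beside 44.1% of all genes (22.0% higher and 22.1% lower). MUC3A, the leading mucin of this line, was at 21.9, 23.9 and 26.4 CPM with DMSO and 30.5, 29.7 and 28.7 with GSK025. The groups did not overlap, and the rise was small (log2 fold change 0.30, SE 0.09, adjusted p = 0.0117; without DMSO replicate 1 0.24, adjusted p = 0.0587). MUC12 went to 3.63, 3.44 and 2.79 CPM and fell by 0.65 (SE 0.21, adjusted p = 0.0249). This call was lost without DMSO replicate 1 (-0.49, adjusted p = 0.130), GSK025 replicate 2 (-0.68, adjusted p = 0.0524) or GSK025 replicate 3 (-0.54, adjusted p = 0.0967).

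The other 7 members tested were not called with GSK025. Among them MUC4 had a log2 fold change of 0.78 (95% interval -0.03 to 1.59), MUC13 of 0.84 (-0.13 to 1.82) and MUC20 of -0.75 (-1.57 to 0.07). MUC1 (0.08) and MUC5B (0.04) had values near 0 with intervals of -0.94 to 1.10 and -1.42 to 1.51. MUC5AC (0.68) and MUC2 (-0.23) were too weak for a narrower interval than -1.88 to 3.24 and -3.82 to 3.37.

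The compounds were given at different doses and share the DMSO libraries, so their values are set side by side and the direct test covers the treatments as given. MUC12 fell by 0.65 with GSK025 and 1.24 with GSK715, MUC20 by 0.75 (not called) and 2.05, and MUC3A had 0.30 and -0.04. GSK715 was lower than GSK025 for these 3 of 9 members tested and higher for 0, beside 44.3% of all genes called (21.8% higher and 22.5% lower). The differences were -0.34 (SE 0.09, adjusted p = 0.0057) for MUC3A, -0.59 (SE 0.22, adjusted p = 0.0416) for MUC12 and -1.30 (SE 0.40, adjusted p = 0.0169) for MUC20. The MUC12 call was lost without DMSO replicate 3 (-0.59, adjusted p = 0.0579), GSK025 replicate 1 (-0.50, adjusted p = 0.133) or 2 (-0.56, adjusted p = 0.103) or GSK715 replicate 2 (-0.61, adjusted p = 0.0809) or 3 (-0.47, adjusted p = 0.144), and with no count filter (-0.59, adjusted p = 0.0728). With only these 2 groups in the fit both calls were lost, MUC12 at -0.59 (adjusted p = 0.0582) and MUC20 at -1.30 (adjusted p = 0.0558). The MUC20 call was also lost without GSK025 replicate 3 (-1.12, adjusted p = 0.0615) or GSK715 replicate 1 (-1.14, adjusted p = 0.0581) or 3 (-1.17, adjusted p = 0.0550). MUC5B was called higher without GSK715 replicate 1 (2.08, adjusted p = 0.0196) or 2 (2.09, adjusted p = 0.0172). Across 11184 genes of at least 5 CPM, the log2 fold change in HCT116 correlated with exonic length (Spearman rho -0.30 with GSK025 and -0.29 with GSK715, genes sharing their libraries). In WiDr short reads rho was -0.06, and the part of length in the mucin values was not tested.

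**Figure D3:**
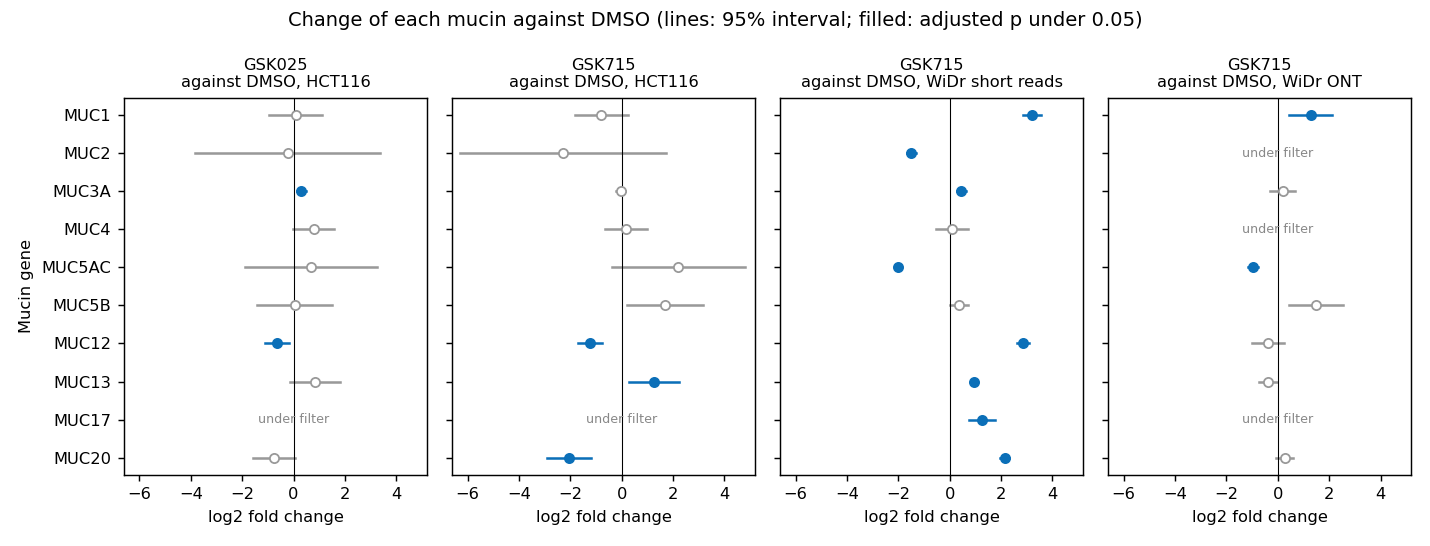
Log2 fold change of each mucin against DMSO in the 4 comparisons, with its 95% interval; filled points have an adjusted p under 0.05, and genes under the count filter carry no point. MUC12 and MUC20 lie left of 0 in HCT116 with GSK715 and right of 0 in WiDr short reads, and the intervals of MUC2 and MUC5AC in HCT116 are the widest.

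The response to GSK715 itself differed between the lines for 5 of the 10 members by a test of the interaction, beside 46.7% of all genes (23.2% more positive in WiDr and 23.5% more negative). It was more positive in WiDr for MUC1 (difference of log2 fold changes 3.93, SE 0.43, adjusted p = 5.1e-06), MUC12 (4.02, SE 0.24, adjusted p = 1.5e-08), MUC20 (4.12, SE 0.25, adjusted p = 1.5e-08) and MUC3A (0.43, SE 0.13, adjusted p = 0.0169). MUC12 and MUC20 were called in opposite directions in HCT116 and WiDr short reads. Both lines shared a common estimate of the spread in this fit. The SE for MUC20 (0.25) was thus below that of its HCT116 response alone (0.40), so these SEs and p-values may be too small. MUC5AC was more negative in WiDr (-4.27, SE 1.01, adjusted p = 0.0033), and this call was lost without HCT116 GSK715 replicate 3 (-1.74, adjusted p = 0.107). MUC13 did not differ by this test (-0.39, 95% interval -1.23 to 0.44). For MUC17 no difference can be given, since HCT116 had no counts of it.

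The ONT libraries gave the same direction for MUC5AC and MUC1 and other values for several members. The fit held 7 of the 10 members, because MUC2, MUC4 and MUC17 were under the count filter. MUC5AC was at 478 and 564 CPM with DMSO and 275 and 262 with GSK715 (log2 fold change -0.95, SE 0.10, adjusted p = 4.2e-10). MUC1 was at 6.15 and 4.80 CPM and then 13.5 and 13.6, on 17 and 40 counts in all (1.28, SE 0.41, adjusted p = 0.0408). These were the 2 calls among 7 members, beside 8.8% of all genes (4.29% higher and 4.51% lower). The MUC1 call was lost without DMSO replicate 1 (1.48, adjusted p = 0.168) or 2 (1.13, adjusted p = 0.224) and without GSK715 replicate 1 (1.29, adjusted p = 0.178) or 2 (1.28, adjusted p = 0.192), each of which left 1 library in a group that is then assumed to vary like the other.

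MUC12, MUC13 and MUC20, which rose in short reads, were not called in ONT. MUC12 was at 18.5 and 15.8 CPM with DMSO and 12.8 and 13.6 with GSK715 in ONT (log2 fold change -0.38, SE 0.31, adjusted p = 0.542). MUC13 was at 57.2 and 61.7 CPM and then 47.1 and 44.2 (-0.38, SE 0.17, adjusted p = 0.174). MUC20 was at 52.9 and 54.2 CPM and then 62.0 and 67.4 (0.27, SE 0.16, adjusted p = 0.342), with MUC20P1 at 1.64 ± 0.585 and 0.673 ± 0.952 CPM (SD, n = 2). MUC5B went from 3.08 and 3.43 to 8.76 and 9.53 CPM on 10 and 27 counts (1.47, adjusted p = 0.0674), and MUC3A from 25.2 and 21.9 to 27.6 and 26.5 (0.19, adjusted p = 0.714). MUC2 had 7 counts in both DMSO libraries together and 10 with GSK715, which was under the count filter of the ONT fit.

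The response differed between the read types for 6 of the 10 members, beside 19.9% of all genes (11.2% higher in ONT and 8.69% lower). ONT minus short reads was -3.18 (SE 0.28, adjusted p = 7.7e-06) for MUC12, -1.27 (SE 0.10, adjusted p = 3.6e-06) for MUC13, -1.81 (SE 0.17, adjusted p = 9.2e-06) for MUC20 and -1.87 (SE 0.34, adjusted p = 0.0018) for MUC1. It was 1.09 (SE 0.10, adjusted p = 7.9e-06) for MUC5AC and 2.11 (SE 0.59, adjusted p = 0.0237) for MUC2. Both read types shared a common estimate of the spread in this fit. The SE for MUC13 (0.10) was thus below that of its ONT response alone (0.17), so these SEs and p-values may be too small. The MUC2 call was lost without ONT DMSO replicate 1 (1.51, adjusted p = 0.198) or ONT GSK715 replicate 1 (1.78, adjusted p = 0.246), and the MUC1 call without ONT DMSO replicate 1 (-1.68, adjusted p = 0.0816). The DMSO levels were also unlike: MUC12 was at 4.17 CPM in short reads and 17.1 in ONT, MUC20 at 14.1 and 53.5, MUC1 at 0.987 and 5.48, MUC13 at 161 and 59.5, and MUC2 at 46.7 and 2.33 (tables scaled separately, without a test).

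Values over all genes are given for genes chosen by their change in short reads, a choice that itself favours smaller values in ONT. Of 1318 genes called at least 2-fold higher in short reads and tested in both, the median log2 fold change was 1.52 in short reads and 0.23 in ONT, with the same sign in 70.1%. Of 1243 called at least 2-fold lower, the medians were -1.37 and -0.31, with the same sign in 79.1%. EGFR, chosen here as a partner of membrane mucins, fell by 3.26 in short reads and by 0.82 in ONT. Median ONT read lengths were 765 to 844 bases and the reads' N50 1617 to 1765 bases, shorter than the mucin mRNAs, whose longest transcripts measure 2842 bases (MUC20) to 17911 (MUC5B). Whether read length, depth or the cells used account for the difference between read types was not tested.

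**Figure D4:**
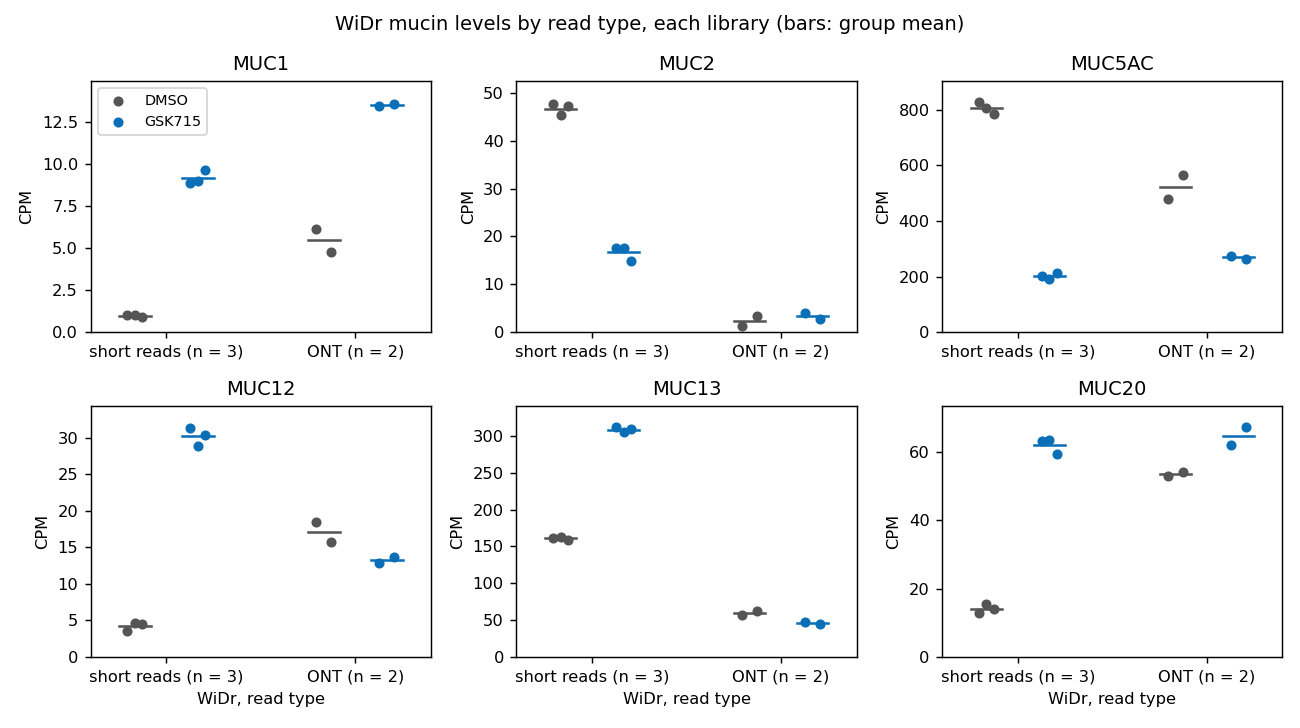
Levels of 6 mucins in WiDr in every short-read and ONT library, in CPM on axes that start at 0; points are libraries and bars group means. MUC5AC and MUC1 move the same way in both read types, while MUC12 and MUC13 are higher with GSK715 in short reads and lower in ONT, where neither these nor MUC20 passed the test.

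A list of 13 other genes, mucins and genes grouped with them, was looked at as well. Of these 8 were tested in WiDr short reads, of which 4 rose and 1 (the weakly measured MUC6) fell. This and the WiDr counts that follow stand against 65.8% of all genes called. MUC16, the large membrane mucin known as CA125, went from 18.5 ± 1.78 to 80.4 ± 2.96 CPM (SD, n = 3), a log2 fold change of 2.12 (SE 0.07, adjusted p = 2.5e-09). MCAM, which is on the list though not named as a mucin, rose by 1.25 (SE 0.06, adjusted p = 3.5e-08). In HCT116 5 were tested, beside 44.1% and 46.4% of all genes called: MCAM rose (0.43 with GSK025 and 0.67 with GSK715) and the sialomucin CD164 fell (-0.74 and -0.69). In ONT 0 of 6 were called, and MUC16 was at 1.92 ± 0.770 CPM with DMSO and 2.38 ± 2.41 with GSK715 (SD, n = 2).

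Neighbouring genes are given because reads or chromatin can be shared. Of 12 tested neighbours and copies 9 rose and 1 fell in WiDr short reads. MUC12-AS1, antisense to MUC12, rose by 1.47 (SE 0.40, adjusted p = 0.0083) at 1.16 CPM or less in every library. THBS3, beside MUC1, rose by 1.39 (SE 0.17, adjusted p = 4e-05). TNK2, beside MUC4, was at -0.00 (95% interval -0.10 to 0.09).

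The genes that build mucin sugars changed in both directions in WiDr short reads, as did all genes (33.6% higher and 32.2% lower). Of 29 O-glycosylation enzymes tested, 13 rose and 12 fell, with a median of 0.03 against 0.05 for all genes. ST3GAL1, which caps the core sugar with sialic acid, fell from 1469.9 ± 21.04 to 428 ± 7.48 CPM (SD, n = 3; log2 fold change -1.78, SE 0.02, adjusted p = 9.9e-12). GCNT3, which branches the chains of secreted mucins, fell by 1.45 (SE 0.03, adjusted p = 8.8e-11). FUT2, which adds the secretor fucose, rose by 2.05 (SE 0.07, adjusted p = 3.4e-09), and ST3GAL2, another sialyltransferase, by 1.17 (SE 0.06, adjusted p = 8.9e-08).

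In HCT116 15 of 28 of these enzymes were called with GSK025 (8 higher, 7 lower) and 11 with GSK715 (6 higher, 5 lower), beside 44.1% and 46.4% of all genes. GALNT3, which starts O-glycan chains, fell by 1.15 with GSK025, from 37.3 ± 1.21 to 16.8 ± 0.854 CPM (SD, n = 3). With GSK715, GALNT18 fell by 1.38 and C1GALT1, which builds the core 1 structure, by 0.77. In ONT 1 rose and 4 fell of 21, beside 8.8% of all genes. ST3GAL1 (-0.61, adjusted p = 4.5e-05) and GCNT3 (-0.63, adjusted p = 4e-05) were among those that fell. FUT2 (0.45, adjusted p = 0.181) and ST3GAL2 (0.25, adjusted p = 0.688) were not called in ONT.

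Of 15 goblet cell secretory genes tested in WiDr short reads, 9 were called higher and 1 lower, beside 33.6% and 32.2% of all genes. Their median was 0.52, against 0.05 for all genes. The goblet cell markers other than MUC2 did not show this: of 6 tested, 1 was called higher (ATOH1) and 2 lower (SPDEF and AGR2), with a median of -0.06. ERN2, the stress sensor of mucus-secreting cells, went from 24.8 ± 2.00 to 60.2 ± 0.891 CPM (SD, n = 3; log2 fold change 1.28, SE 0.06, adjusted p = 4.2e-08), and CREB3L1 rose by 0.67 (SE 0.04, adjusted p = 9e-08). AGR2, the disulfide isomerase that helps fold MUC2, was called lower by 0.09 (SE 0.03, adjusted p = 0.0404). RETNLB, named after its value was seen, had 0 counts in the short-read DMSO libraries and 0.399 to 1.11 CPM with GSK715, while ONT listed it at 0.650 ± 0.0499 CPM with DMSO (SD, n = 2). In ONT 0 of 11 rose and AGR2 fell by 0.37 (SE 0.09, adjusted p = 0.0041), beside 8.8% of all genes called. ERN2 was at -0.27 there (adjusted p = 0.534). In HCT116 0 of 11 rose with either compound, beside 22.0% and 22.1% of all genes, while 2 fell with GSK025 and 3 with GSK715, beside 22.1% and 24.2%.

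Transcription factors known from mucin genes or goblet cells changed in WiDr for 17 of 20 tested, 7 up and 10 down. KLF4, a goblet cell factor, fell by 1.54 (SE 0.03, adjusted p = 2.3e-10), and KLF5 by 1.52 (SE 0.04, adjusted p = 7.5e-10), from 1087 ± 60.5 to 380 ± 11.8 CPM (SD, n = 3). SPDEF, which drives goblet cell maturation, fell by 0.41 (SE 0.03, adjusted p = 2.4e-06), and ATOH1, the secretory lineage factor, rose by 1.204 (SE 0.29, adjusted p = 0.0041) at 2.26 ± 0.354 CPM with GSK715 (SD, n = 3). ELF3, an epithelial ETS factor, rose by 0.97 (SE 0.03). In ONT 2 of 15 were called, beside 8.8% of all genes: ELF3 (0.51, adjusted p = 0.00014) and KLF4 (-0.75, adjusted p = 0.0049). SPDEF had the other sign in ONT and was not called (0.37, adjusted p = 0.348). Its response differed between the read types (ONT minus short reads 0.84, adjusted p = 0.0018). KLF5 was not called in ONT (-0.21, adjusted p = 0.157), and its response also differed between the read types (1.35, adjusted p = 1.3e-06). ATOH1 had 6 ONT counts with DMSO and 4 with GSK715. In HCT116 ELF3 rose with both compounds (0.48 and 0.40), and 9 of 18 factors were called with GSK025 and 7 with GSK715, beside 44.1% and 46.4% of all genes.

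Of 17 partners and proteases of membrane mucins tested in WiDr short reads, 7 rose and 9 fell, beside 33.6% and 32.2% of all genes. EGFR, a receptor that MUC1 binds, fell from 108 ± 3.01 to 11.3 ± 0.273 CPM (SD, n = 3), and in HCT116 with GSK715 from 132 ± 0.976 to 11.8 ± 1.41. ERBB2, the partner of MUC4, rose by 1.23 in WiDr (SE 0.04, adjusted p = 2.9e-09) and by 0.66 and 0.22 in HCT116 with GSK025 and GSK715. TMPRSS2, a membrane protease, rose by 2.18 in WiDr (SE 0.06, adjusted p = 5.1e-10), and ezrin (EZR), which links membrane proteins to actin, fell by 0.95 (SE 0.02, adjusted p = 3.7e-10). In ONT EZR also fell (-0.56, adjusted p = 3.9e-05), and ERBB2 was at 0.04 (95% interval -0.31 to 0.39). TMPRSS2 was not called there (0.38, adjusted p = 0.715).

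**Figure D5:**
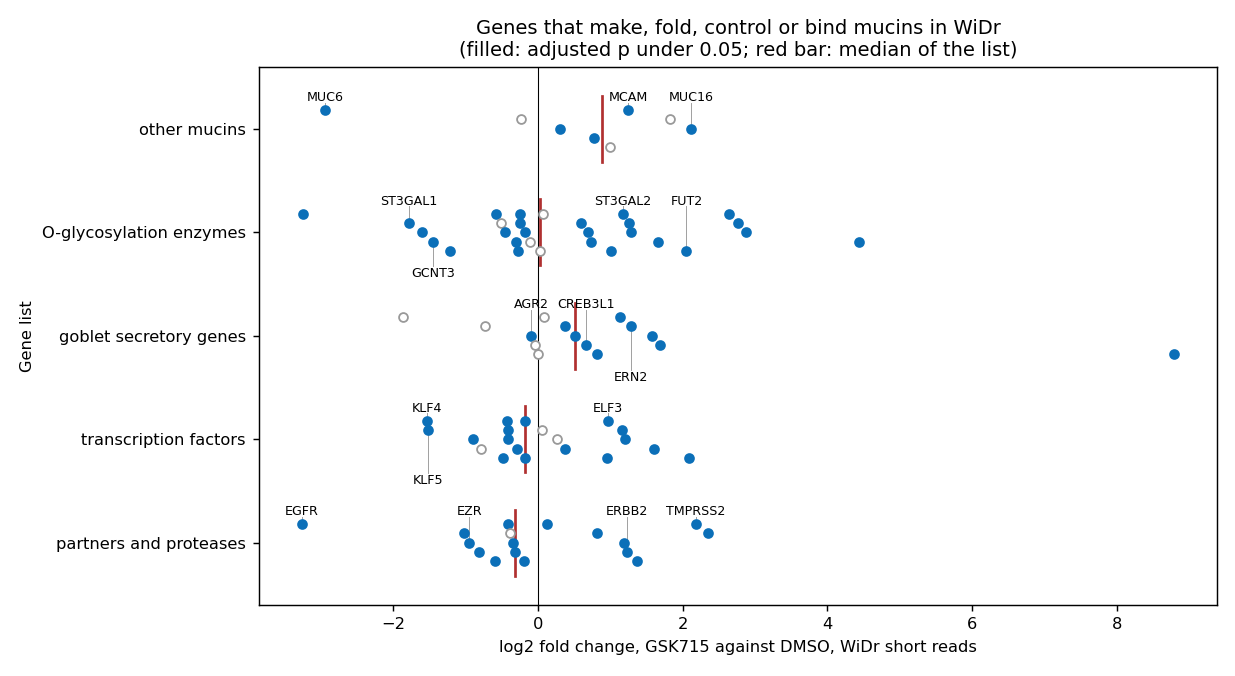
Log2 fold change with GSK715 in WiDr short reads of the tested genes of 5 lists, 1 point a gene; filled points have an adjusted p under 0.05, red bars are medians, and the labelled genes are among the called ones with the smallest adjusted p. The enzymes, factors and partners spread to both sides of 0, and the point far to the right is RETNLB, which had no counts with DMSO.

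The genes whose pattern over the 15 short-read libraries was most like a member's, by Pearson r of log2 CPM relative to the line's DMSO mean, are given as a description. For MUC1 they were STARD8 (r = 0.99) and HEBP1 (0.98), for MUC12 BAIAP3 (0.99) and TRAF3IP1 (0.99), for MUC20 SMIM30 (0.98) and AP1G2 (0.98), and for MUC3A B4GAT1 (0.97) and REEP6 (0.97). For MUC5B they were ALDH1A1 (0.97) and AKR1C2 (0.91), both among the 41 genes that stood apart in HCT116 GSK715 replicate 3, and for MUC13 AKR1C3 (0.89) and AKR1C2 (0.88). MUC5AC was closest to CA12 (0.88), MUC2 to SIK1 (0.88) and MUC4 to ARHGEF10L (0.83), so these 3 had no gene of a pattern as close.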

How the data were processed

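For short reads the authors deposited whole-number counts of each gene. For ONT they deposited estimated counts, 15.1% of them not whole, and these were rounded to whole numbers for the fit. Read lengths in bases and full-length reads in percent come from a further deposited table, per the file headers (82.7% to 84.8%). Per the submitters' processing notes, cutadapt, HISAT2, StringTie, DESeq2, minimap2, Salmon and the build GRCh38 were used; which tool made which table is not given in the sources used here.

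Groups follow the labels. The NC columns of the WiDr tables were assigned to DMSO, the only group left. Gene names came from GENCODE 29 and a table of gene names. Each table was fitted whole in R 4.3.3 with edgeR 4.0.16 (filterByExpr with a minimum count of 10 and minimum total of 15, TMM, quasi-likelihood F-test, Benjamini-Hochberg adjustment over all genes tested). HCT116 groups shared 1 fit, and interactions used the 60259 IDs shared by the lines and the 61975 shared by the read types. The SE is the log2 fold change divided by the square root of F. The fits were tested on simulated data.

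Repeats were searched at periods of 18 to 600 bases and 80% identity. The members, 6 lists of related genes, 5 marker lists and the rule for naming genes (all members, and for each list and direction the 2 called genes of smallest adjusted p) were chosen with earlier results of these data known. Alternatives were RLE size factors, library totals, no count filter, DESeq2 1.42.0, a block for replicate numbers, fits leaving out single libraries, and fits of only the groups compared. In WiDr, RETNLB, SPDEF, ATOH1, THBS3, TNK2 and MUC12-AS1 are also named, chosen after their values were seen. MUC3B had no ID and was not analysed here. A factor that the rule names is not reported here.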

Additional observations from a re-analysis of the deposited data

Results flagged for a closer look

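The response to GSK715 differed between WiDr and HCT116, by a test of the difference, for 5 of the 10 mucins. In the same test 46.7% of all genes were called, so the count of mucins alone does not set them apart. WiDr minus HCT116 was 3.93 on the log2 scale for MUC1, 4.02 for MUC12, 4.12 for MUC20, 0.43 for MUC3A and -4.27 for MUC5AC. MUC12 and MUC20 were called in opposite directions in HCT116 and WiDr short reads, and in each the GSK715 and DMSO libraries did not overlap. In WiDr ONT neither was called (log2 fold change -0.38 for MUC12 and 0.27 for MUC20). The share of all genes with opposite calls and separate libraries in both lines is not given here. The MUC5AC value rests on HCT116 counts of 0 to 27 with DMSO and on HCT116 GSK715 replicate 3 (157 counts), without which it was -1.74.

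Within WiDr the response differed between ONT and short reads for 6 of the 10 mucins, beside 19.9% of all genes. ONT minus short reads was -1.87 for MUC1, 2.11 for MUC2, 1.09 for MUC5AC, -3.18 for MUC12, -1.27 for MUC13 and -1.81 for MUC20. The cause was not tested. The values for MUC1 and MUC2 rest on 17 and 7 ONT counts in the DMSO libraries.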

How the results depend on the processing

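In WiDr short reads the 8 called members kept their call and direction under every alternative run. Deviations of same-numbered libraries of a table from their group means correlated weakly over all genes (-0.03 to 0.03). In WiDr short reads these pairs were at 0.029 to 0.034 and the other pairs at -0.048 to 0.017. Such values cannot exclude a pairing. With 2 ONT libraries a group the deviations mirror each other, so nothing can be read from them. With the replicate number as a block, 1 member in place of 2 was called higher for ONT minus short reads (MUC2 2.11, adjusted p = 0.0588). Without a composition factor (library totals) the median of all genes moved to -0.21 in HCT116 with GSK715, 0.18 in WiDr, 0.47 between the lines and -0.24 between the read types. There, 0 members were higher in HCT116 with GSK715 (MUC13 1.10, adjusted p = 0.0632), 3203 genes were lower between the lines, MUC5B with GSK025 became -0.023, and MUC4 became 0.18 between the lines and -0.17 between the read types.

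Without a count filter 0 members were higher in HCT116 with GSK715. In ONT the same setting called 141 genes higher and 110 lower with 0 members higher, and DESeq2 called 150 and 124 with 0 members higher. Between the lines DESeq2 called 0 members lower. With only the groups compared in the fit, 0 members were higher in HCT116 with GSK715 and 1 was lower for GSK715 against GSK025. The causes were not tested.

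Leaving out 1 library at a time moved the members called higher in HCT116 to 0 to 1 (GSK025), 0 to 2 (GSK715) and 0 to 1 (GSK715 against GSK025), and those called lower to 0 to 1 with GSK025 and 1 to 3 between the compounds. In ONT the members called higher were 0 to 0, and all genes called 236 to 571 higher and 228 to 509 lower, with 3 libraries. Between the lines the members called lower were 0 to 1, and between the read types those called higher 1 to 2.

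Signs that turned belonged to members that were not called. With GSK025 the range over libraries left out was -0.20 to 0.44 for MUC1, -1.81 to 0.35 for MUC2 and -0.23 to 0.27 for MUC5B. With GSK715 in HCT116 it was -0.10 to 0.032 for MUC3A, -0.050 to 0.43 for MUC4, -0.29 to 3.10 for MUC5AC and -0.18 to 2.14 for MUC5B. Between the compounds it was -0.97 to 2.05 for MUC5AC, -0.23 to 2.09 for MUC5B and -0.20 to 0.68 for MUC13. For MUC4 in WiDr it was -0.074 to 0.29. Between the lines it was -0.37 to 0.093 for MUC4, -1.82 to 0.52 for MUC5B and -0.62 to 0.27 for MUC13, and between the read types -7.43 to 7.40 for MUC4 and -8.63 to 5.203 for MUC17, on 0 to 2 ONT counts a library. In ONT, MUC2, MUC4 and MUC17 had too few counts for the filter.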
